A study of Homo sapiens with 45 samples.

Results

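The transcription factors SNAI1, SNAI2, TWIST1 and TWIST2 and the E proteins TCF4 and TCF3, with which the TWIST factors pair, were followed in 3 human cancer cell lines transfected with microRNAs. Members were taken by gene name: a probe set of the array belonged to the group if its annotation gave exactly 1 gene symbol and that symbol was 1 of the 6. This gave 6 of 19775 genes with such a probe set and 27 of the 54675 probe sets, and all 27 passed the filter on dim signals and were tested. SNAI1 (chromosome 20), SNAI2 (chromosome 8) and TWIST1 (chromosome 7) had 1 probe set each. TWIST2 (chromosome 2) had 2, TCF4 (chromosome 18) had 8 and TCF3 (chromosome 19) had 14. The lines were PC3, from prostate cancer, and SKOV3 and HEY, from ovarian cancer. In each line, cells received a precursor RNA at 33 nM by lipid carrier. It was that of miR-203a in 1 group, of miR-205 in another, of miR-429 in another, and in the control group the negative-control precursor (miR-NC), while the remaining group carried the label untransfected. RNA was taken 48 h after transfection. The 15 groups held 3 arrays each, 45 in all, and every group was grown in the same medium with serum. Each group is a permanent line under a transient excess of a small RNA. Whether arrays of 1 group stem from different cultures is not stated. The p-values therefore measure the spread between arrays, which may be technical.

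SNAI1 and SNAI2 are zinc finger proteins that bind a short motif, the E-box, and repress genes of epithelial junctions. TWIST1 and TWIST2 are basic helix-loop-helix proteins that bind E-boxes as dimers, often with an E protein, and the ID proteins, which cannot bind DNA, tie up E proteins. In carcinoma cells these factors are known for driving the shift from an epithelial to a mesenchymal state, whereas the 3 microRNAs are known for favouring the epithelial state. TCF4 here is the E protein and not the beta-catenin partner TCF7L2, which shares the alias.

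The mature microRNAs are shown because their seeds, bases 2 to 8 (in capitals, 5′ to 3′), decide which transcripts they pair with. The labels do not state the arm of the precursor, and the arms below were chosen here as the usual mature ones. The sequences are from RefSeq (GRCh38.p14).
hsa-miR-203a-3p: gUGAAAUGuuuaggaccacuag
hsa-miR-205-5p: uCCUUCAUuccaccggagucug
hsa-miR-429: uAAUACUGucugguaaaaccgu
They lie on the + strand at chr14:104117469-104117490, chr1:209432166-209432187 and chr1:1169055-1169076. No pair of them shared a seed, so that each treatment was a different small RNA in this respect.

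The E-box bound by SNAIL proteins was searched as CAGGTG or CACCTG, the same site read on either strand, in windows from 250 bases before to 50 after each RefSeq gene start. Of 27305 genes with such a window, 24.1% held the motif. It was found in 8 of the 11 genes with a window (72.7%) on a list of 19 genes reported as repressed by these factors, a list picked for such reports. It was found in 3 of 15 genes with a window on the list reported as activated. None of the 3 members with a window (TWIST2, TCF4 and TCF3; 0 of 3) held these letters there. CLDN1, CLDN4 and BRCA2, also on the repressed list, had a window without the motif. The windows of CRB3 and PATJ, both polarity genes from that list, are shown with each motif in capitals. Both were tested here, as were 18 of the 19 listed genes, and both were picked with their values known. CRB3 lies at chr19:6464021-6464320 and PATJ at chr1:61742230-61742529, both on the + strand of GRCh38.p14.
CRB3: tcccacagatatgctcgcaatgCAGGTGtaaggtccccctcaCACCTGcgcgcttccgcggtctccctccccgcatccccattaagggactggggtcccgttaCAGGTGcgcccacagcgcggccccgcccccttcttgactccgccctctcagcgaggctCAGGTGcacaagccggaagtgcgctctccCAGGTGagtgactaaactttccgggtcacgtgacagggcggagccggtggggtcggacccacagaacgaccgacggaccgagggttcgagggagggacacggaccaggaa
PATJ: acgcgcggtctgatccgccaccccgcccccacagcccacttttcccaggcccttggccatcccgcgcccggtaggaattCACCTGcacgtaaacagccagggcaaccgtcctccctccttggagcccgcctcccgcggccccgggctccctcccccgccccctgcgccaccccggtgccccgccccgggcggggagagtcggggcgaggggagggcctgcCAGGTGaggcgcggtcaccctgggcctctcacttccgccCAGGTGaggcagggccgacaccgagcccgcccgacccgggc
CRB3 held 5 motifs and PATJ held 3. A match of letters is a description of the window and not evidence of binding in these cells.

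Values are log2 intensities, and differences are log2 differences, so that 1 is a doubling. A probe set was called where its adjusted p, over the 31147 probe sets tested, was under 0.05. The median of all values, 4.89, serves as the level near background. The arrays labelled untransfected went against their line labels on marker genes. ERBB2, which SKOV3 amplifies, averaged 12.31 on those labelled HEY and 7.60 on those labelled SKOV3. The prostate gene HOXB13 averaged 11.73 on those labelled SKOV3 and 4.36 on those labelled PC3. With miR-NC, ERBB2 averaged 11.33 in SKOV3, 6.83 in HEY and 6.37 in PC3. HOXB13 averaged 6.56 in PC3 and 6.70 in SKOV3 with miR-NC, and so did not separate these groups. In PC3 it ran from 5.36 with miR-429 to 8.19 with miR-203a. By median correlation over tested probe sets, arrays labelled untransfected SKOV3 or HEY were closest to transfected SKOV3 (0.802 and 0.923). Those labelled PC3 were closest to HEY (0.927). Comparisons therefore rest on miR-NC, and p-values are also given without these 9 arrays where that changed a call. Control probe sets at the 5′ end of transcripts, which read RNA length and labelling, moved with some groups. For miR-203a, miR-205 and miR-429 in turn, the GAPDH 5′ probe set differed from miR-NC by 4.95, 3.66 and -0.50 in PC3 and by 0.58, 3.92 and -2.11 in HEY. The ACTB 5′ probe set had the same signs, at 3.73, 2.73 and -0.55 in PC3 and 0.75, 1.22 and -0.97 in HEY. The GAPDH 3′ probe set moved as well, by 2.01, 1.82 and -0.32 in PC3 and by 0.07, 1.48 and 1.31 in HEY. In HEY with miR-429 it thus rose where the 5′ probe sets fell. The ACTB 3′ probe set differed by 0.35 or less in both lines. In SKOV3 both 5′ probe sets differed from miR-NC by 0.04 or less. But they read 13.65 or more on every transfected array, level with the 3′ probe sets of the same genes (13.63 to 13.83). So near the top of the scale a shift in SKOV3 may not show. The part of these shifts in the results below was not tested. In bulk RNA, fewer cells expressing a gene and less of its RNA per cell cannot be told apart.

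Of the 27 member probe sets, few were called in SKOV3 and many in PC3 and HEY, where large shares of all tested probe sets were called too. With miR-203a in PC3, 8 were called higher and 8 lower, against backgrounds of 30.7% and 24.2% of all tested probe sets. In SKOV3 it was 0 higher and 3 lower (backgrounds 5.88% and 4.11%), and in HEY 1 higher and 3 lower (6.47% and 6.56%). With miR-205, PC3 had 10 higher and 2 lower (backgrounds 26.9% and 19.8%), SKOV3 had 2 higher and 0 lower (14% and 8.19%), and HEY had 10 higher and 7 lower (32.8% and 32%). With miR-429, PC3 had 4 higher and 8 lower (backgrounds 13% and 31.3%) and HEY had 12 higher and 9 lower (24.3% and 33.4%). In SKOV3 with miR-429 limma called none of the 27 (0 higher and 0 lower, against backgrounds of 13% and 5.84%), and 2 had an unadjusted p under 0.05. Probe sets of 1 gene read the same transcripts and are not replicates, so each gene is described below by its brightest probe set, and the others follow. The brightest of TCF4 (213891_s_at) and of TCF3 (213811_x_at) are of the kinds that may cross-hybridise, left out in a setting below.

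**Figure D1:**
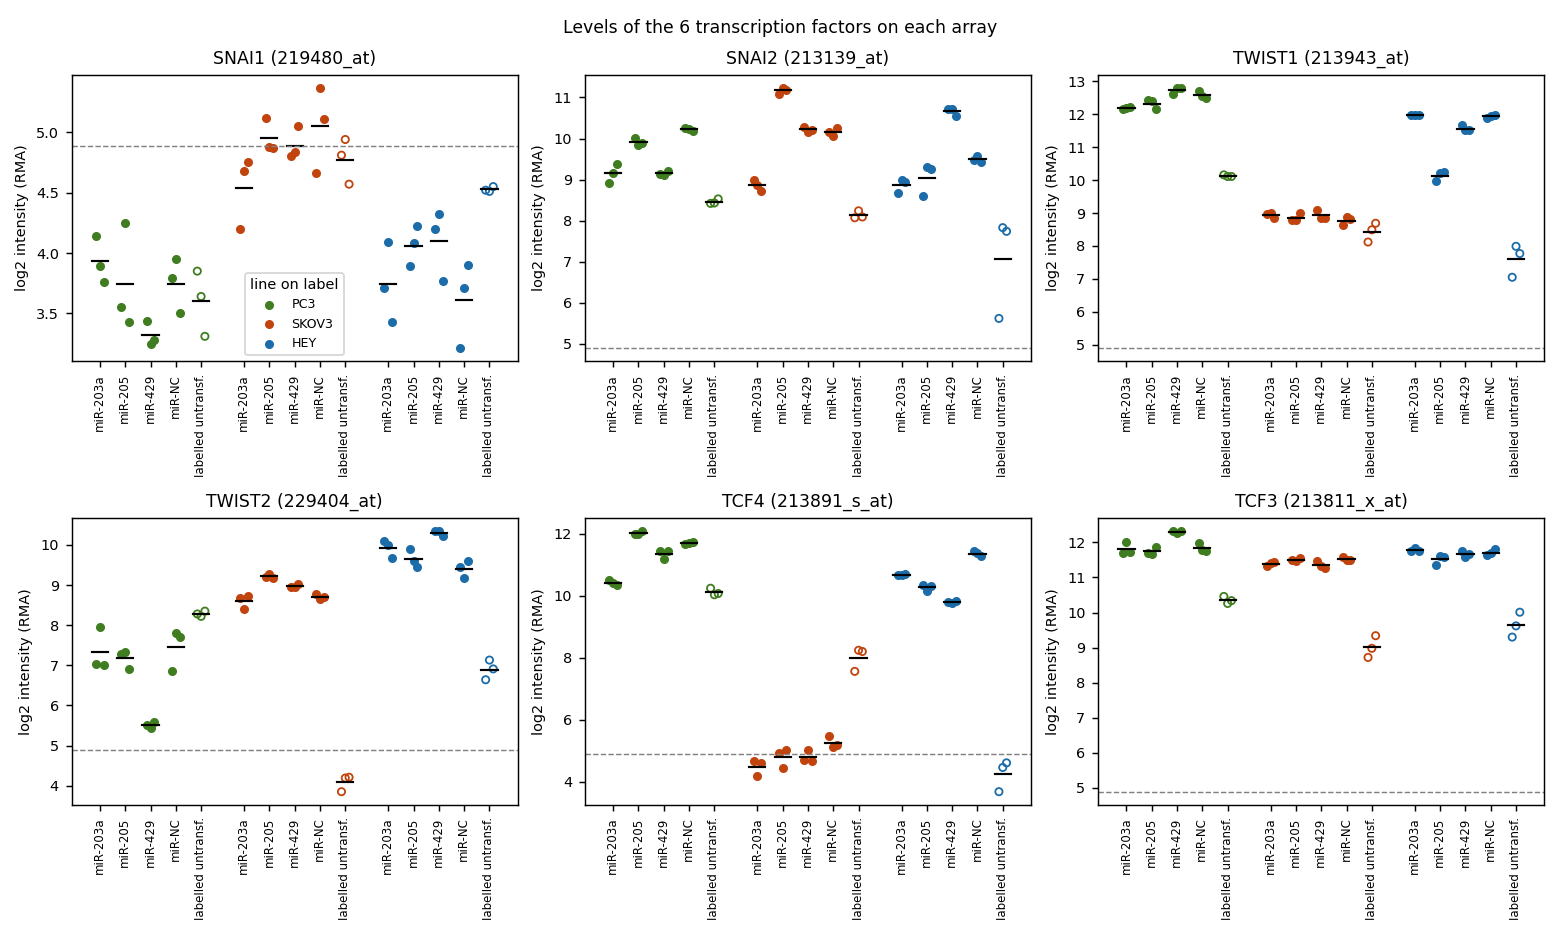
Level of each factor on each of the 45 arrays, as log2 intensity of its brightest probe set (y axis), for the groups of PC3, SKOV3 and HEY (x axis). Points are arrays, short bars are group means, open points are arrays labelled untransfected, and the dashed line is the median of all values, 4.89. TCF4 lies near that line in transfected SKOV3 and at 9.75 or more in transfected PC3 and HEY.

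SNAI2, the zinc finger repressor also called SLUG, was expressed in all lines and was lower under miR-203a in SKOV3 and PC3, higher under miR-205 in SKOV3, and higher in HEY but lower in PC3 under miR-429. Under miR-NC the 3 arrays read 10.26, 10.24 and 10.19 in PC3, 10.16, 10.05 and 10.26 in SKOV3, and 9.47, 9.58 and 9.44 in HEY. The PC3 and SKOV3 arrays overlapped each other and lay above all HEY arrays. The difference was 0.73 ± 0.27 (SE, n = 3 arrays per group, as for every difference below) for PC3 over HEY (adjusted p = 0.0224) and 0.66 ± 0.27 for SKOV3 over HEY (adjusted p = 0.0269). The call for PC3 over HEY was lost without HEY miR-NC replicate 1 or 3 or PC3 miR-NC replicate 1 (adjusted p of 0.0511 to 0.0575). The call for SKOV3 over HEY was lost without HEY miR-NC replicate 1 or 3 or SKOV3 miR-NC replicate 1 or 3 (0.0524 to 0.072).

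With miR-203a, SNAI2 read 8.99, 8.88 and 8.72 in SKOV3, against 10.16, 10.05 and 10.26 with miR-NC. Every miR-203a array lay below every control array. SNAI2 fell by 1.30 ± 0.27, or 2.46-fold, in SKOV3 (adjusted p = 8.98e-04). In PC3 the arrays read 8.92, 9.15 and 9.37 with miR-203a, against 10.26, 10.24 and 10.19 with miR-NC, again without overlap, a difference of -1.08 ± 0.27 (adjusted p = 0.00102). In HEY they read 8.68, 9.0 and 8.93 with miR-203a, against 9.47, 9.58 and 9.44 with miR-NC. These groups did not overlap either, but the difference of -0.63 ± 0.27 was not called (adjusted p = 0.134). The arrays labelled untransfected HEY spread widely in SNAI2 (5.62, 7.83 and 7.74), and in the fit without the arrays labelled untransfected the HEY difference was called (adjusted p = 0.00128). The test of a difference between lines in this response was not called (F-test, adjusted p = 0.332, against 41.7% of all tested probe sets called).

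With miR-205, SNAI2 read 11.09, 11.24 and 11.19 in SKOV3, against 10.16, 10.05 and 10.26 with miR-NC. All miR-205 arrays lay above the controls, and the gene rose by 1.02 ± 0.27 (2.02-fold, adjusted p = 0.0054). The same microRNA gave 10.01, 9.83 and 9.88 in PC3, against 10.26, 10.24 and 10.19 with miR-NC, a difference of -0.32 ± 0.27 that was not called (adjusted p = 0.351, and 0.0459 without the arrays labelled untransfected). In HEY it gave 8.60, 9.30 and 9.26, against 9.47, 9.58 and 9.44 with miR-NC, a difference of -0.44 ± 0.27 (adjusted p = 0.155, and 0.00465 without those arrays). SKOV3 thus stood apart from both other lines: its response exceeded that of HEY by 1.46 ± 0.39 (adjusted p = 0.00151), and the PC3 response was below that of SKOV3 by -1.34 ± 0.39 (adjusted p = 0.0057). The F-test over the 3 lines gave an adjusted p of 0.00172, in a test that called 67.5% of all probe sets for miR-205.

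With miR-429, SNAI2 moved in opposite directions in PC3 and HEY. In PC3 it read 9.13, 9.11 and 9.22 with miR-429, against 10.26, 10.24 and 10.19 with miR-NC, a difference of -1.08 ± 0.27 (2.11-fold, adjusted p = 0.00167). In HEY it read 10.72, 10.72 and 10.54 with miR-429, against 9.47, 9.58 and 9.44 with miR-NC, a rise of 1.16 ± 0.27 (2.24-fold, adjusted p = 4.04e-04). In neither line did the groups overlap. In SKOV3 the arrays overlapped, at 10.29, 10.17 and 10.20 with miR-429 and 10.16, 10.05 and 10.26 with miR-NC, and the difference was 0.06 ± 0.27 (adjusted p = 0.906). The responses differed between the lines (F-test, adjusted p = 2.85e-05, where 66.2% of all probe sets were called for miR-429), by -2.24 ± 0.39 for PC3 minus HEY (adjusted p = 7.96e-06). The median of all tested probe sets itself shifted by -0.197 in PC3 and by -0.105 in HEY with miR-429, and by 0.003 and -0.074 after quantile normalization. The SNAI2 differences were -1.16 in PC3 and 1.29 in HEY after quantile normalization, and -0.67 (adjusted p = 0.043) and 1.23 after subtracting array medians.

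**Figure D2:**
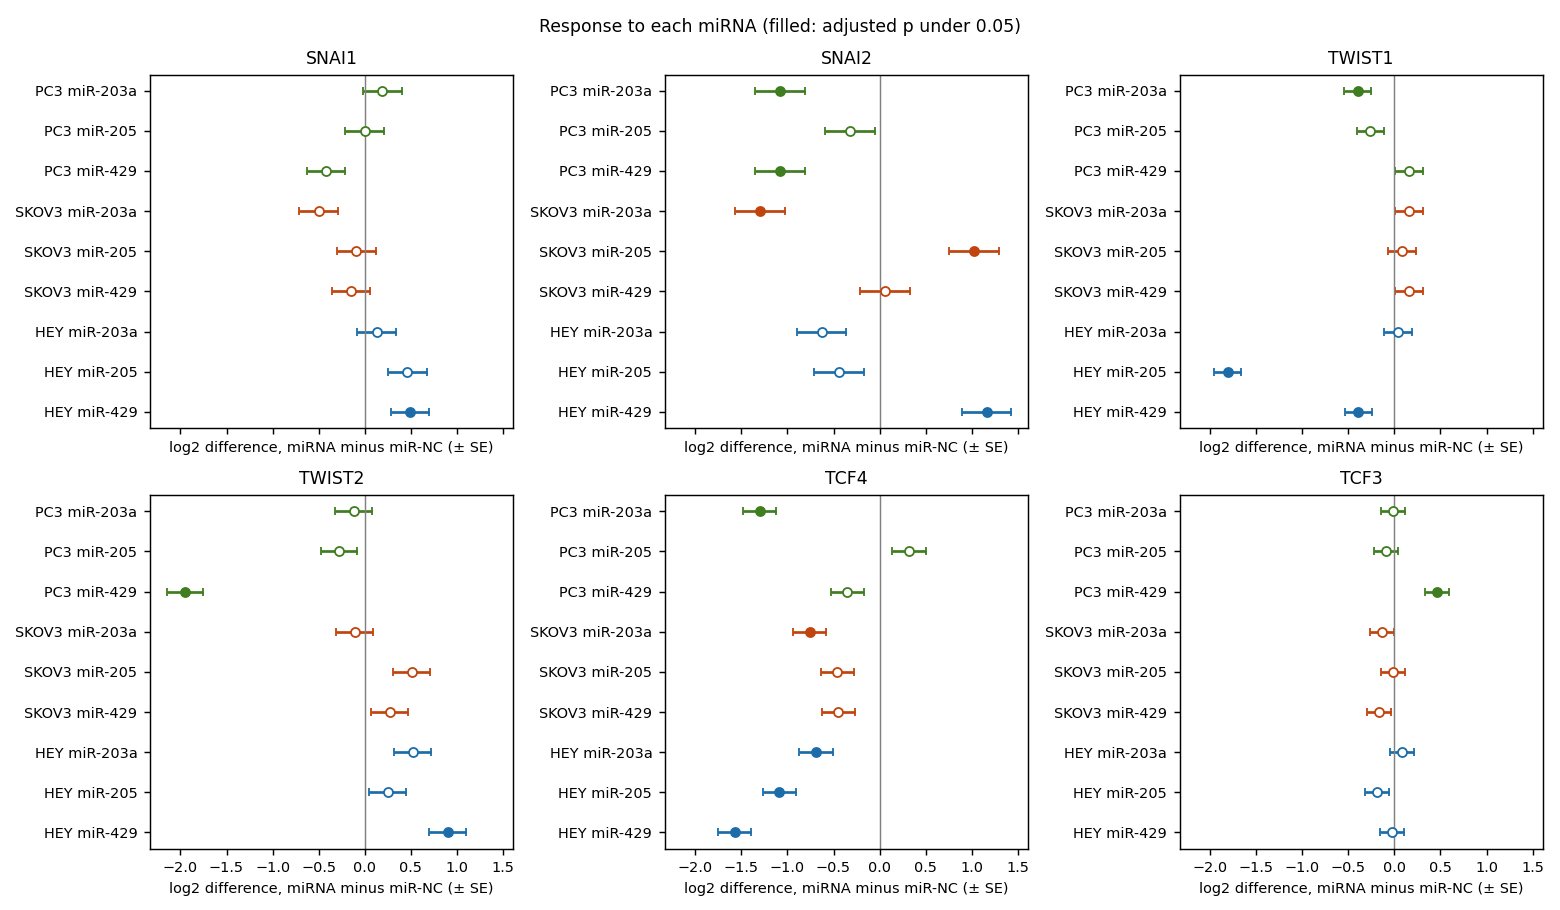
Difference of each factor between a microRNA and miR-NC of the same line (x axis, log2 units, brightest probe set), with 1 row per line and microRNA. Points are fitted differences from 3 arrays per group, bars are ± 1 SE, and filled points had an adjusted p under 0.05. SNAI2 is filled on both sides of 0, TWIST1 has its lowest point in HEY with miR-205 (-1.81), and TWIST2 its lowest in PC3 with miR-429 (-1.95).

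SNAI1, the founding SNAIL repressor, was near background. Under miR-NC it read 3.79, 3.95 and 3.50 in PC3, 4.66, 5.37 and 5.11 in SKOV3, and 3.21, 3.71 and 3.90 in HEY, so that SKOV3 was the only line with arrays above 4.89 in this group. SKOV3 exceeded HEY by 1.44 ± 0.21 (adjusted p = 8.64e-08), and PC3 was below SKOV3 by -1.30 ± 0.21 (adjusted p = 5.39e-07). Since PC3 and HEY lay below the level near background, these sizes are uncertain. PC3 and HEY overlapped (0.14 ± 0.21, adjusted p = 0.605).

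Of the 9 microRNA comparisons, 1 was called for SNAI1. In HEY it read 4.20, 4.32 and 3.77 with miR-429, against 3.21, 3.71 and 3.90 with miR-NC, overlapping values that all lay below 4.89. The difference was 0.49 ± 0.21 (adjusted p = 0.0419), and the call was lost without HEY miR-NC replicate 1 (0.284), HEY miR-429 replicate 1 (0.111) or HEY miR-429 replicate 2 (0.167). It was also lost without the arrays labelled untransfected (0.0502), in a fit per line (0.0652), after quantile normalization (0.054) and with a trended robust prior (0.0512). In the other 8 comparisons the differences ran from -0.50 in SKOV3 with miR-203a (adjusted p = 0.137) to 0.46 in HEY with miR-205 (adjusted p = 0.0516).

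TWIST1, which activates mesenchymal genes and represses CDH1, was bright in PC3 and HEY and lower in SKOV3. Under miR-NC it read 12.70, 12.56 and 12.48 in PC3, 8.63, 8.88 and 8.81 in SKOV3, and 11.90, 11.96 and 11.99 in HEY. No arrays overlapped between lines. PC3 exceeded SKOV3 by 3.81 ± 0.15 (14-fold, adjusted p = 3.63e-23) and HEY by 0.63 ± 0.15 (adjusted p = 4.80e-04), and SKOV3 was below HEY by -3.18 ± 0.15 (9.05-fold, adjusted p = 1.19e-20). Over the 27 member probe sets, 17 were called higher and 6 lower in PC3 than in SKOV3 (backgrounds 41% and 40.3%), 3 higher and 9 lower in PC3 than in HEY (22.4% and 31.5%), and 5 higher and 18 lower in SKOV3 than in HEY (37.3% and 41.2%).

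The largest TWIST1 difference among the 9 microRNA comparisons was in HEY with miR-205. The arrays read 9.96, 10.23 and 10.24 with miR-205, against 11.90, 11.96 and 11.99 with miR-NC, and did not overlap. TWIST1 fell by 1.81 ± 0.15, or 3.50-fold (adjusted p = 4.71e-13). The GAPDH 5′ probe set read 12.34, 12.57 and 11.94 on these miR-205 arrays, against 8.42, 8.06 and 8.62 on the miR-NC arrays. The control probe set thus rose on the arrays where TWIST1 fell. The arrays labelled untransfected PC3, which correlated best with HEY arrays (median r = 0.927 over tested probe sets, as a description), read 10.16, 10.11 and 10.11 for TWIST1 and averaged 12.25 for GAPDH 5′, both close to HEY with miR-205. The part of the control difference in the TWIST1 result was not tested.

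Other TWIST1 differences were smaller. In PC3 with miR-203a it read 12.15, 12.18 and 12.21, against 12.70, 12.56 and 12.48 with miR-NC, without overlap. The difference of -0.40 ± 0.15 was called (adjusted p = 0.0222) but lost without PC3 miR-NC replicate 1 (0.0866) or PC3 miR-203a replicate 1 (0.0569). In HEY with miR-429 it read 11.67, 11.51 and 11.52, against 11.90, 11.96 and 11.99 with miR-NC. That difference of -0.39 ± 0.15 (adjusted p = 0.0252) was lost without any 1 of HEY miR-NC replicates 2 and 3 and HEY miR-429 replicates 2 and 3 (0.0554 to 0.0689), after subtracting array medians (0.068) and in a fit per line (0.109). In PC3 with miR-205 it read 12.42, 12.40 and 12.16, against 12.70, 12.56 and 12.48 with miR-NC, without overlap. That difference of -0.26 ± 0.15 was not called (adjusted p = 0.16), but was without the arrays labelled untransfected (0.0346) and after quantile normalization (-0.41, adjusted p = 0.0155). In SKOV3 the differences were 0.16 under miR-203a, 0.08 under miR-205 and 0.16 under miR-429, and in HEY with miR-203a it was 0.04, none of them called. The responses differed between lines for miR-205 (F-test, adjusted p = 1.71e-09) and miR-429 (0.0289), and the test was not called for miR-203a (0.0646).

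TWIST2, a close relative of TWIST1, had another order of lines: under miR-NC it read 6.86, 7.81 and 7.70 in PC3, 8.77, 8.66 and 8.69 in SKOV3, and 9.45, 9.18 and 9.59 in HEY. The lines did not overlap, and PC3 was below SKOV3 by -1.26 ± 0.20 (adjusted p = 4.17e-07) and below HEY by -1.95 ± 0.20 (adjusted p = 9.89e-11). SKOV3 was below HEY by -0.70 ± 0.20 (adjusted p = 0.00162), which was not called after quantile normalization (-0.35, adjusted p = 0.114).

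With miR-429, TWIST2 was lower in PC3 and higher in HEY on its brightest probe set, the directions SNAI2 took as well. In PC3 the arrays read 5.51, 5.44 and 5.58 with miR-429, against 6.86, 7.81 and 7.70 with miR-NC. Every miR-429 array was below every control array, and TWIST2 fell by 1.95 ± 0.20, or 3.85-fold (adjusted p = 1.37e-09), and by 1.51 after quantile normalization. In HEY they read 10.35, 10.34 and 10.22 with miR-429, against 9.45, 9.18 and 9.59 with miR-NC, a rise of 0.90 ± 0.20 without overlap (1.86-fold, adjusted p = 1.82e-04). In SKOV3 the arrays read 8.96, 8.96 and 9.02 with miR-429, against 8.77, 8.66 and 8.69 with miR-NC, a difference of 0.27 ± 0.20 (adjusted p = 0.39) that was not called although the groups did not overlap. The response in PC3 was below that in HEY by -2.84 ± 0.28 (adjusted p = 1.60e-10) and below that in SKOV3 by -2.22 ± 0.28 (adjusted p = 5.45e-07).

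Neither miR-203a nor miR-205 gave a call on the brightest TWIST2 probe set in any line. The nearest were SKOV3 with miR-205, at 9.20, 9.28 and 9.17 against 8.77, 8.66 and 8.69 with miR-NC (0.51 ± 0.20, adjusted p = 0.0595), and HEY with miR-203a, at 10.10, 10.01 and 9.67 against 9.45, 9.18 and 9.59 with miR-NC (0.52 ± 0.20, adjusted p = 0.081). The dimmer TWIST2 probe set, 1554163_at, had a mean above 4.89 in the transfected groups of HEY and in none of PC3 or SKOV3. There it read 7.05, 6.73 and 7.18 with miR-205, against 5.38, 4.76 and 5.33 with miR-NC (1.83 ± 0.28, adjusted p = 7.54e-07). With miR-203a it rose by 0.95 ± 0.28 (adjusted p = 0.0206), so that the 2 TWIST2 probe sets differed in which HEY comparisons were called. With miR-429, 1554163_at differed from miR-NC by 0.59 in HEY and by 0.25 in PC3, neither called, with both PC3 means below 4.89. Its F-test between lines for miR-429 was not called (adjusted p = 0.334). On the arrays labelled untransfected PC3 this probe set averaged 6.34.

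TCF4, the E protein with which TWIST1 can pair, showed the largest contrast between lines. Under miR-NC its brightest probe set read 11.66, 11.71 and 11.74 in PC3, 5.46, 5.13 and 5.17 in SKOV3, and 11.44, 11.38 and 11.28 in HEY. SKOV3 was just above the level near background, while PC3 and HEY were bright. PC3 exceeded SKOV3 by 6.45 ± 0.18 (87.4-fold, adjusted p = 1.06e-27), SKOV3 was below HEY by -6.11 ± 0.18 (69.1-fold, adjusted p = 7.25e-27), and PC3 over HEY was 0.34 ± 0.18 (adjusted p = 0.106, and 0.0304 without the arrays labelled untransfected). All 8 TCF4 probe sets were called higher in PC3 than in SKOV3, by 1.34 to 6.45, but all except 213891_s_at and 212386_at averaged under 4.89 in SKOV3 with miR-NC, so that most of these sizes are uncertain.

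With miR-203a, TCF4 was lower in all 3 lines on this probe set. In PC3 it read 10.49, 10.40 and 10.34, against 11.66, 11.71 and 11.74 with miR-NC, a difference of -1.30 ± 0.18 (2.46-fold, adjusted p = 1.08e-07). In HEY it read 10.66, 10.66 and 10.70, against 11.44, 11.38 and 11.28 with miR-NC (-0.69 ± 0.18, adjusted p = 0.00635). No arrays overlapped in either line. In SKOV3 it read 4.66, 4.19 and 4.62, against 5.46, 5.13 and 5.17 with miR-NC (-0.76 ± 0.18, adjusted p = 0.00255), values on both sides of 4.89 whose difference is only a bound. Of the 8 TCF4 probe sets, 5 were called lower and 0 higher in PC3, 2 lower and 0 higher in SKOV3, and 3 lower and 0 higher in HEY with miR-203a. Backgrounds called lower were 24.2% in PC3, 4.11% in SKOV3 and 6.56% in HEY. On the brightest probe set the F-test of a difference between lines was not called (adjusted p = 0.0859). It was called on 228837_at (adjusted p = 9.67e-07), with responses of -1.64 in PC3, 0.18 in SKOV3 and -0.55 in HEY. It was also called on 212385_at (adjusted p = 0.00439), with -0.48, -0.61 and 0.50 in that order. Both averaged under 4.89 in SKOV3 with miR-203a and with miR-NC. This test called 41.7% of all tested probe sets.

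The microRNAs were also compared with each other in PC3, where the GAPDH 5′ probe set differed by 1.29 between miR-203a and miR-205. TCF4 read 10.49, 10.40 and 10.34 in PC3 with miR-203a, against 11.99, 11.99 and 12.09 in PC3 with miR-205 (-1.62 ± 0.18, adjusted p = 6.44e-09). All 8 TCF4 probe sets were called lower there, by 0.85 to 1.92, among 3 higher and 9 lower of the 27 member probe sets (backgrounds 10.7% and 10.6%). SNAI2 was lower by -0.76 ± 0.27 in that comparison (adjusted p = 0.0427), a call kept only when PC3 miR-203a replicate 3 was the array left out and lost without any other (0.0737 to 0.168). TWIST1 and TWIST2 were not called (-0.14 and 0.16).

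With miR-205 and miR-429, TCF4 differed between lines. In HEY it read 10.35, 10.14 and 10.32 with miR-205, against 11.44, 11.38 and 11.28 with miR-NC (-1.09 ± 0.18, adjusted p = 1.34e-06). With miR-429 it read 9.80, 9.75 and 9.82 in HEY, against the same controls (-1.57 ± 0.18, 2.98-fold, adjusted p = 1.33e-09). In PC3 it read 11.99, 11.99 and 12.09 with miR-205 and 11.43, 11.17 and 11.45 with miR-429, against 11.66, 11.71 and 11.74 with miR-NC. These PC3 differences, 0.32 and -0.35, were not called (adjusted p = 0.133 and 0.0999, and 0.0423 and 0.0278 without the arrays labelled untransfected), and the second was -0.69 after quantile normalization and 0.05 after subtracting array medians. In SKOV3 the means with miR-205 and miR-429, 4.79 and 4.81, lay below the level near background, against 5.25 with miR-NC. Neither difference, -0.46 and -0.45, was called (adjusted p = 0.0542 and 0.0725), but both were without the arrays labelled untransfected (0.0085 and 0.0125). The F-tests gave adjusted p = 3.25e-05 for miR-205 and 7.23e-05 for miR-429.

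The other TCF4 probe sets did not all follow the brightest. In SKOV3 with miR-205, 1 of the 8 was called higher and 0 lower (backgrounds 14% and 8.19%). It was 212387_at, at 5.06 against 4.45 with miR-NC (0.61), values on both sides of 4.89. In PC3 with miR-205, 4 of the 8 were called higher and 1 lower (backgrounds 26.9% and 19.8%), from -0.80 on 228837_at to 1.44 on 212385_at. In PC3 with miR-429, 1 was higher and 3 lower (backgrounds 13% and 31.3%), from -1.01 on 203753_at to 0.53 on 212387_at. In HEY with miR-205, 6 of the 8 were called lower and 1 higher (backgrounds 32% and 32.8%), from -2.90 on 228837_at to 1.17 on 222146_s_at. Probe set 222146_s_at read 7.33, 7.02 and 6.73 with miR-205, against 5.81, 5.84 and 5.93 with miR-NC, while 212386_at read 7.27, 7.13 and 7.32 with miR-205, against 10.12, 10.18 and 10.07 with miR-NC. With miR-429 in HEY, 6 were lower and 2 higher (backgrounds 33.4% and 24.3%), from -1.81 on 212386_at to 1.43 on 222146_s_at. Probe sets of 1 gene thus moved in opposite directions on the same HEY arrays, without overlap between the groups. On the arrays labelled untransfected PC3, 222146_s_at averaged 6.81, the brightest TCF4 probe set 10.11 and 212386_at 8.33. Which transcript ends these probe sets read was not looked up, and the part of the control shift in their disagreement was not tested.

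**Figure D3:**
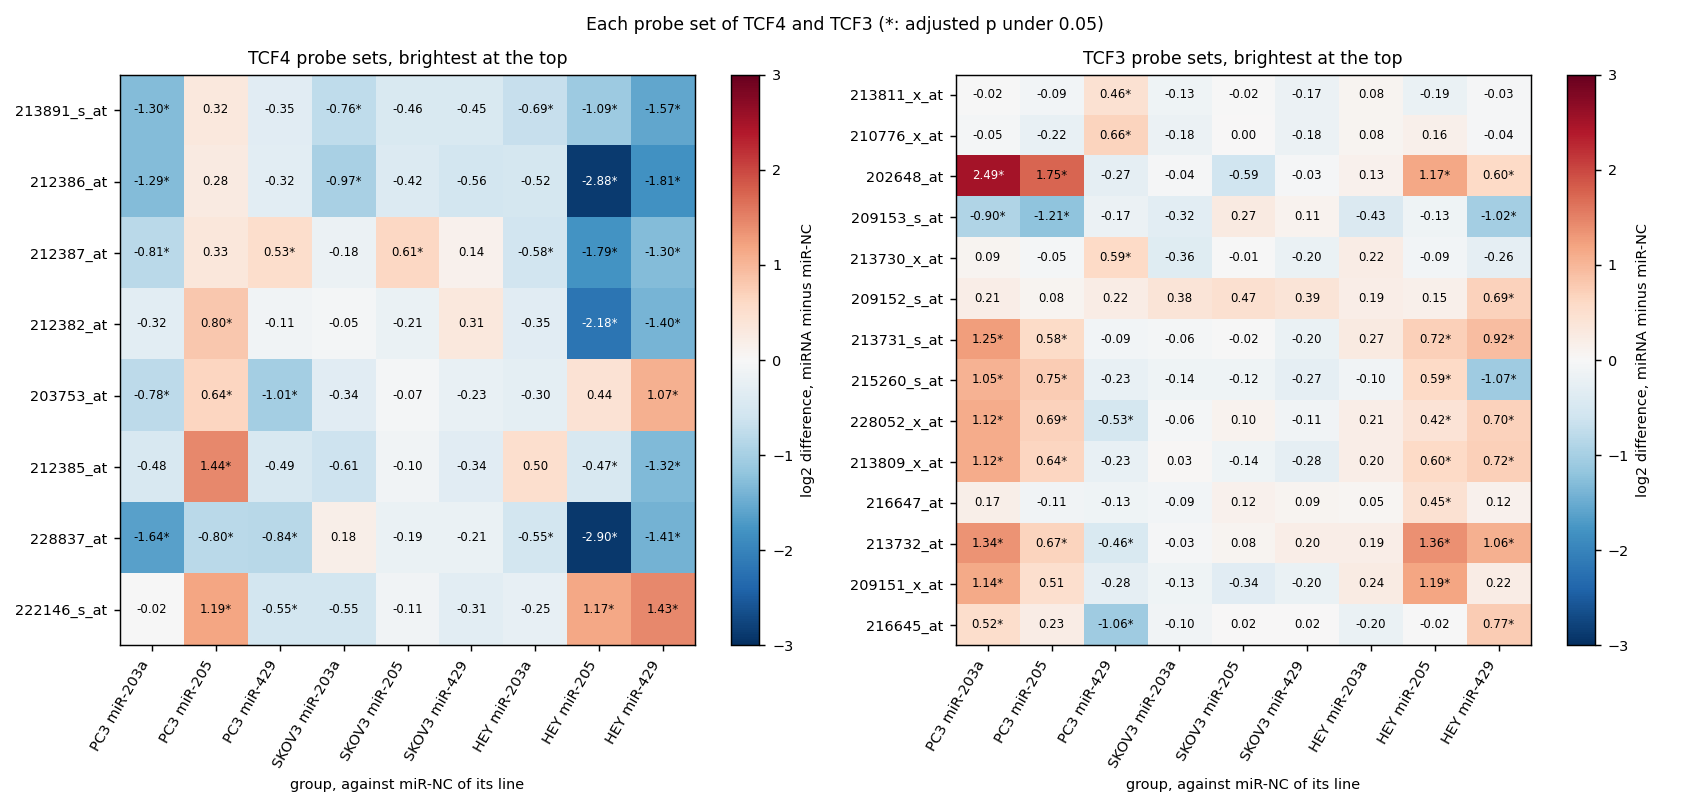
Difference between a microRNA and miR-NC of the same line on each of the 8 TCF4 and 14 TCF3 probe sets (rows) in the 9 comparisons (columns), as log2 units in colour and print. A star marks an adjusted p under 0.05. SKOV3 columns hold few stars, while HEY with miR-205 or miR-429 has TCF4 probe sets in both directions, from -2.90 to 1.43.

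TCF3, whose gene makes a pair of E proteins by splicing, differed little between lines on its brightest probe set but more on others, given below. Under miR-NC it read 11.97, 11.79 and 11.76 in PC3, 11.58, 11.49 and 11.51 in SKOV3, and 11.63, 11.69 and 11.81 in HEY. PC3 exceeded SKOV3 by 0.31 ± 0.13 (adjusted p = 0.0301), which was lost without SKOV3 miR-NC replicate 2 or 3 or PC3 miR-NC replicate 1 (0.063 to 0.12), and the other 2 differences between lines were not called. Of the 9 microRNA comparisons, 1 was called. In PC3 with miR-429 the arrays read 12.32, 12.27 and 12.33, against 11.97, 11.79 and 11.76 with miR-NC (0.46 ± 0.13, adjusted p = 0.0046), without overlap. That difference was 0.25 and not called after quantile normalization (adjusted p = 0.138), and 0.87 after subtracting array medians (adjusted p = 1.64e-06). The other 8 lay between -0.19 and 0.08.

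The other TCF3 probe sets spread around this. Under miR-NC, 3 of the 14 were called higher and 8 lower in SKOV3 than in HEY (-3.84 to 3.12, backgrounds 37.3% and 41.2%). In PC3, 8 were higher and 3 lower than in SKOV3 (-3.1 to 1.22, backgrounds 41% and 40.3%). PC3 had 0 higher and 5 lower than HEY (-2.62 to 0.23, backgrounds 22.4% and 31.5%). In PC3 with miR-203a 8 of the 14 were called higher and 1 lower (backgrounds 30.7% and 24.2%), from -0.90 on 209153_s_at to 2.49 on 202648_at. Probe set 202648_at read 12.49, 11.97 and 11.84 with miR-203a and 11.40, 11.12 and 11.57 with miR-205 in PC3, against 9.31, 9.58 and 9.95 with miR-NC. These groups did not overlap with the control, whereas the probe set brightest over all arrays, 213811_x_at, differed by -0.02 and -0.09. With miR-203a in PC3, 202648_at was the brighter one, at a mean of 12.1 against 11.82. In HEY with miR-205 8 were higher and 0 lower (backgrounds 32.8% and 32%), and with miR-429 7 were higher and 2 lower (24.3% and 33.4%). In SKOV3 none of the 14 was called by limma with any microRNA (0), and at an unadjusted p under 0.05 it was 1 for miR-203a, 2 for miR-205 and 0 for miR-429. Because the probe sets disagreed, no direction is given for TCF3 in PC3 or HEY.

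TCF12, the remaining E protein, fell by 0.96 ± 0.13 in PC3 with miR-203a (10.02 against 10.98 with miR-NC, adjusted p = 8.26e-08), by 0.68 ± 0.13 in PC3 with miR-205 (10.30 against 10.98, adjusted p = 4.07e-05) and by 0.89 ± 0.13 in HEY with miR-205 (10.07 against 10.96, adjusted p = 1.92e-07). It was not called in SKOV3, where the differences were -0.17, 0.10 and 0.23. Of 12 relatives listed with it, 6 were tested.

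The ID proteins, which block E proteins, were tested with 4 of 4 members. In HEY with miR-429 all 4 rose: ID1 averaged 7.57 against 5.29 with miR-NC (2.29 ± 0.21, adjusted p = 2.01e-11). The other 3 were higher by 1.35 for ID2, 0.95 for ID3 and 1.54 for ID4, of which ID2 (4.70 against 3.35 with miR-NC) and ID4 (3.88 against 2.34) lay below the level near background in both groups. The median of the 4 was 1.45, against -0.105 for all tested probe sets, of which 24.3% were called higher. In HEY with miR-205 3 of the 4 rose, against 32.8% of all tested probe sets. There ID1 averaged 7.73 against 5.29 with miR-NC (2.44 ± 0.21, adjusted p = 2.19e-12). In HEY with miR-203a 0 were called higher and 1 lower (backgrounds 6.47% and 6.56%). In PC3, ID1 averaged 8.67 with miR-203a and 8.04 with miR-205, against 5.32 with miR-NC (3.35 ± 0.21 and 2.71 ± 0.21, adjusted p = 3.44e-15 and 8.60e-13), while ID4 fell in both (-1.27 and -1.04). With miR-429 in PC3, ID1 fell by 0.58 ± 0.21 and ID3 by 1.41 ± 0.18. In SKOV3, where ID1 averaged 13.42 under miR-NC, 1 of the 12 ID results was called, ID4 with miR-429 (0.81). The 4 groups in which ID1 rose were 3 with a higher GAPDH 5′ signal than miR-NC and, in HEY with miR-429, 1 with a lower signal. The GAPDH 3′ probe set was higher than with miR-NC in all 4, by 1.31 to 2.01. In the remaining comparisons with miR-NC it differed by -0.32 to 0.07. The part of these shifts in the ID1 result was not tested.

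**Figure D4:**
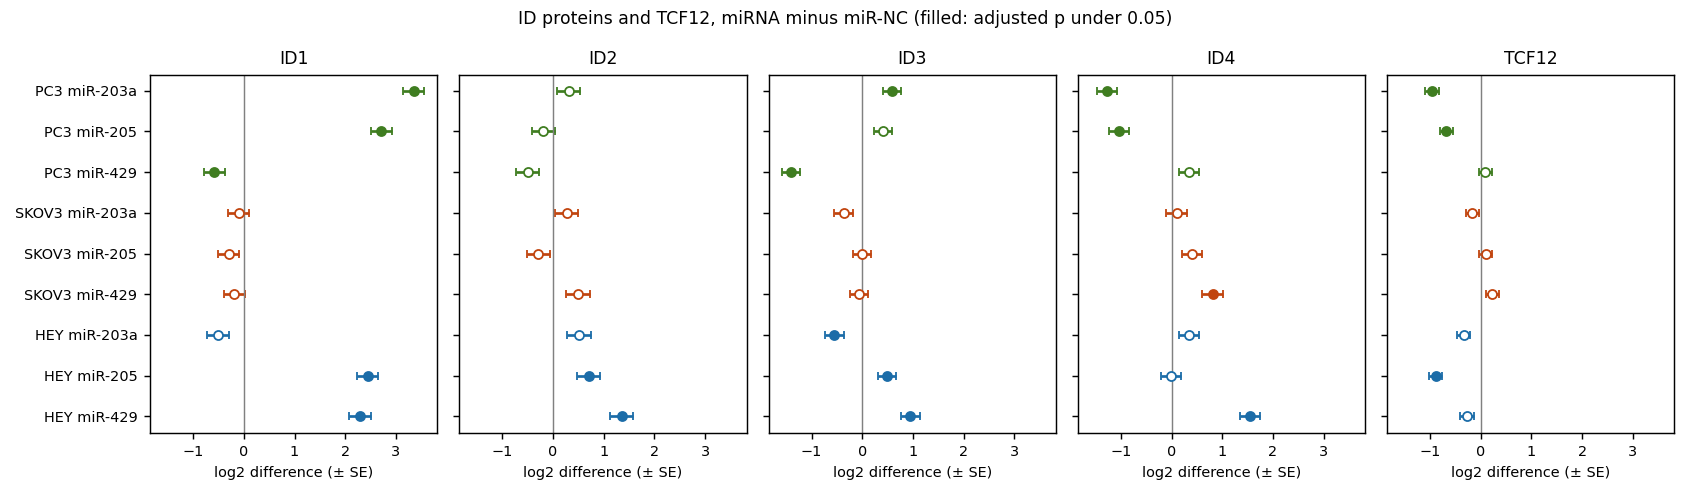
Difference of ID1 to ID4 and TCF12 between a microRNA and miR-NC of the same line (x axis, log2 units, brightest probe set), with 1 row per line and microRNA. Points are fitted differences from 3 arrays per group, bars are ± 1 SE, and filled points had an adjusted p under 0.05. ID1 is filled at 2.29 to 3.35 in PC3 with miR-203a or miR-205 and in HEY with miR-205 or miR-429, and close to 0 in SKOV3.

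Of 23 proteins listed as SNAIL or TWIST cofactors, 22 were tested. The count ran from 2 higher and 0 lower in SKOV3 with miR-203a to 14 higher and 3 lower in PC3 with miR-203a, where 30.7% and 24.2% of all tested probe sets were called. In HEY with miR-205 it was 9 higher and 10 lower, against 32.8% and 32%. HDAC1, a deacetylase recruited by SNAI1, was called higher in all 9 comparisons, by 0.39 to 0.97, and LOXL2, an oxidase that stabilises SNAI1, in all 9 by 0.33 to 1.69. The 3 comparisons of a line share their miR-NC arrays, so these are not separate observations. Both genes were picked from the 22 with their values known. How many of all tested probe sets were called higher in all 9 was not counted. Of 15 listed genes for the phosphorylation and turnover of SNAIL and TWIST proteins, 14 were tested, and 3 were higher and 9 lower in HEY with miR-205, against the same 32.8% and 32%. There GSK3B, the kinase that marks SNAI1 for destruction, fell by 2.18, and in HEY with miR-429 BTRC, a part of the ligase that reads this mark, fell by 1.33.

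Genes reported as repressed by these factors were called in 1 direction in SKOV3. With miR-429, 9 of 18 tested were higher and 0 lower, against 13% and 5.84% of all tested probe sets (median 0.36, against -0.008 for all tested probe sets). CDH1, which encodes E-cadherin, averaged 8.59 with miR-429, against 4.03 with miR-NC (4.56 ± 0.46, adjusted p = 1.65e-09), a size that is a bound since the control was below the level near background. PATJ, shown above with its 3 motifs, averaged 9.02 against 6.94 (2.08 ± 0.21, adjusted p = 1.40e-09), and CRB3, with 5, averaged 7.75 against 6.02 (1.73 ± 0.20, adjusted p = 1.99e-08). In the same cells none of the 27 member probe sets was called (0), as given above. With miR-205 in SKOV3, where SNAI2 rose, 8 of the 18 were higher and 0 lower (all tested probe sets 14% and 8.19%), CRB3 by 0.54 and PATJ by 0.91. With miR-203a, where SNAI2 fell, 4 were higher and 0 lower (5.88% and 4.11%), and CDH1 was not called (4.42 with miR-203a, against 4.03 with miR-NC).

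In PC3 and HEY the repressed list moved in both directions. Of the 18, PC3 had 11 higher and 2 lower with miR-203a (30.7% and 24.2% of all tested probe sets), 10 higher and 1 lower with miR-205 (26.9% and 19.8%), and 9 higher and 3 lower with miR-429 (13% and 31.3%). HEY had 1 higher and 3 lower with miR-203a (6.47% and 6.56%), 5 higher and 7 lower with miR-205 (32.8% and 32%), and 6 higher and 4 lower with miR-429 (24.3% and 33.4%). CDH1 was called in none of these 6 comparisons: it lay between 9.83 and 10.71 in PC3 groups and at 3.28 or less in HEY groups. KRT18, an epithelial keratin, was the member with the largest difference in HEY with miR-205 (4.18), where GAPDH 5′ differed by 3.92.

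Of the genes reported as activated by these factors, 17 of 18 were tested. With miR-203a, 4 were higher and 8 lower in PC3, 0 and 0 in SKOV3, and 1 and 2 in HEY. With miR-205 it was 4 higher and 7 lower in PC3, 2 and 3 in SKOV3, and 4 and 6 in HEY, and with miR-429 1 higher and 5 lower in PC3 and 2 and 7 in HEY, against the shares of all tested probe sets given above. In SKOV3 with miR-429 0 were higher and 4 lower (13% and 5.84%), among them ZEB1, another E-box repressor (-2.15 ± 0.13, adjusted p = 1.01e-14), and FN1, which encodes fibronectin (-1.69 ± 0.24, adjusted p = 1.06e-06). FN1 also fell with miR-429 in PC3 (-1.59) and HEY (-1.61). CDH2, which encodes N-cadherin, was called once, in SKOV3 with miR-205 (0.69, adjusted p = 0.0345). VIM, which encodes vimentin, was higher in PC3 with miR-203a and miR-205 and in HEY with each microRNA, by 0.52 to 1.69, on its brightest probe set, in groups where GAPDH 5′ differed from miR-NC by 0.58 to 4.95 in size.

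The arrays labelled untransfected could not serve as a baseline of their line. Against them, member probe sets were called for PC3 miR-NC (10 higher and 13 lower, backgrounds 39% and 35.7%), SKOV3 miR-NC (12 and 12, 42% and 28.3%) and HEY miR-NC (21 and 5, 45.4% and 37%). TCF4 averaged 5.25 with miR-NC in SKOV3, against 8.0 on the arrays labelled untransfected SKOV3, and 11.36 with miR-NC in HEY, against 4.25 on those labelled untransfected HEY. Transfection and the line actually on these arrays cannot be told apart.

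The genes most like each factor were found by Pearson correlation over the 12 transfected group means, among 15593 other genes. They were NFYC (0.9946) and CCNJ (0.994) for TCF4, RAD54B (0.9944) and COCH (0.9942) for TWIST1, and LUZP4 (0.9811) and CAPN13 (0.9782) for SNAI1, factors whose levels differ mainly between lines. TWIST2 had SIGLEC15 (0.9647) and LINC00958 (0.963), and TCF3 had IFT56 (0.9501) and NUP107 (0.9394). SNAI2 had the weakest likeness, with OCRL (0.8603) and PLGRKT (0.8217). Groups of 1 line share that line, and the correlations describe these 12 means only.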

How the data were processed

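Biotin-labelled RNA, amplified from total RNA with a 3′ kit per the labels' protocols, was measured on 45 arrays. The authors deposited log2 intensities made with RMA (background correction, normalization and summary per probe set), per the submitters' processing notes, whose version and grouping of arrays are not given in the sources used here. An order statistic spread over the columns by up to 0.992, so they do not share 1 distribution, and array medians ran from 4.49 to 4.98. The number of arrays, not depth, limits the precision.

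Of 54675 probe sets, 41091 had 1 gene symbol in the platform annotation, and 31147 of these (15599 genes) had a highest group mean above the median of all values (4.89) and were tested. Groups follow the labels. One mean per group (15) was fitted over all arrays by limma 3.58.1, run under R 4.3.3 (lmFit, eBayes, 30 residual and 5.84 prior degrees of freedom), two-sided, with Benjamini-Hochberg adjustment over the tested probe sets and a threshold of 0.05. F-tests compared the responses of the 3 lines. The fit was tested on simulated data. Every member is named. Each gene's brightest probe set on average represents it. Of the 6 lists of partners and targets (91 genes) the text names CDH1, CDH2, VIM, FN1, ZEB1, ID1 to ID3 and TCF12 and up to 2 called genes per list and comparison with the largest change; HDAC1, LOXL2, BTRC, PATJ, CRB3, ID4 and KRT18 were chosen after their values were seen where they fall outside that rule. The members and lists were chosen with earlier results of these data known. Alternatives were a fit per line, no arrays labelled untransfected or these as control, a replicate block, quantile normalization, medians subtracted, other filters, 1 probe set per gene, no probe sets that may cross-hybridise, a trended robust prior, a minimum change of 1, and each array left out. Sequences are from RefSeq tables (GRCh38.p14), read with Python 3.11.15 and pandas 2.3.3; figures used numpy 2.4.6 and matplotlib 3.10.9.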

Additional observations from a re-analysis of the deposited data

Results flagged for a closer look

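For 10 results on the brightest probe sets, the moderated F-test of whether the 3 lines respond unequally to a microRNA was itself called. This test also called 67.5% of all tested probe sets for miR-205 and 66.2% for miR-429. Of the 27 member probe sets it called 18 for miR-205 and 23 for miR-429. A call alone therefore does not set a member apart from other genes. Groups of 3 arrays were too small for a test of single outlying arrays.

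For miR-205 it was called for SNAI2 (adjusted p = 0.00172), which was called, higher, in SKOV3 alone of the 3 lines, for TWIST1 (1.71e-09), where HEY differed from its control by -1.81, for TCF4 (3.25e-05), with -1.09 in HEY, and for TWIST2 (0.0367), where no single line was called and the PC3 response minus the SKOV3 response was -0.79 ± 0.28 (adjusted p = 0.0232). For the last, the dimmer TWIST2 probe set gave a different pattern, with a response in HEY of 1.83.

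For miR-429 it was called for TWIST2 (2.05e-10) and SNAI2 (2.85e-05), both higher in HEY and lower in PC3 than miR-NC, for TCF4 (7.23e-05), called lower in HEY, and for TCF3 (0.0082), whose brightest probe set was 0.46 above miR-NC in PC3, a call lost after quantile normalization (0.25, adjusted p = 0.138) and on which the other TCF3 probe sets disagreed. On the dimmer TWIST2 probe set the F-test for miR-429 was not called (adjusted p = 0.334). On the brightest probe sets it was also called for TWIST1 (0.0289), whose HEY response differed from those of SKOV3 (0.55 ± 0.21 for SKOV3 minus HEY) and PC3 (0.54 ± 0.21 for PC3 minus HEY), and for SNAI1 (0.0189), whose PC3 and HEY values lay below the level near background. In all these comparisons PC3 or HEY groups also differed from their controls in the GAPDH 5′ probe set, by -2.11 to 3.92, and the part of that shift was not tested.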

How the results depend on the processing

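The limits lie in the arrays. There were 3 per group without pairing, and control probe sets moved with groups of PC3 and HEY. The arrays labelled untransfected went against their line labels. Of 78 results on the brightest probe sets, none that was called, with all arrays or in the refit, changed direction when 1 array was left out. Differences near 0 that were not called could change sign. SNAI1 in HEY with miR-203a was 0.13 with all arrays and -0.07 without HEY miR-NC replicate 1. Of 468 such refits 438 kept their call or lack of it, 24 lost it and 6 gained one. Replicate numbers did not pair the arrays (in 0 of 9 comparisons did every pair deviate together), and with the replicate block the count for SKOV3 with miR-429 was 1 instead of 0 member probe sets and 1 of the 78 results became called, SNAI1 in HEY with miR-205 (adjusted p = 0.0413). Quantile normalization ended 4 calls and made 3, and subtracting array medians ended 1 and made 2, among them TWIST1 in PC3 with miR-429 (0.57, adjusted p = 0.00244). The cause of these changes was not tested, unless fewer probe sets or arrays were used.

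Member probe sets called against miR-NC, of 27, ran as follows where a setting moved the count by over 1.5 times. Leaving out 1 array gave 1 to 2 for HEY with miR-203a (4 with all arrays), 1 to 2 for SKOV3 with miR-205 (2) and 0 to 1 for SKOV3 with miR-429 (0). A minimum change of 1 left 0 of 4 for HEY with miR-203a, 1 of 3 for SKOV3 with miR-203a, 11 of 17 for HEY and 1 of 2 for SKOV3 and 4 of 12 for PC3 with miR-205, and 12 of 21 for HEY and 4 of 12 for PC3 with miR-429. It left 3 of 12 for PC3 over HEY under miR-NC, 7 of 12 for PC3 miR-203a against miR-205, and 15 of 23 in the F-test for miR-429. A fit per line gave 2 for HEY with miR-203a, 4 for SKOV3 with miR-205 and 1 for SKOV3 with miR-429. The trended robust prior gave 4 for SKOV3 with miR-205 and 1 for SKOV3 with miR-429, and quantile normalization 1 for SKOV3 with miR-429. Without the arrays labelled untransfected the counts were 7 for HEY and 5 for SKOV3 with miR-203a, 4 for SKOV3 with miR-205 and 2 for SKOV3 with miR-429.

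Fewer probe sets were counted in 3 settings. With 1 per gene (6 members), 1 was called for HEY and 3 for PC3 with miR-203a, 3 for HEY and 0 for PC3 with miR-205, 5 for HEY and 3 for PC3 with miR-429, 5, 3 and 5 for SKOV3 over HEY, PC3 over HEY and PC3 over SKOV3 under miR-NC, 2 for PC3 miR-203a against miR-205, and 0, 4 and 6 in the F-tests for miR-203a, miR-205 and miR-429. The stricter filter (a highest group mean over 7.44) gave 10, 5 and 7 for HEY, SKOV3 and PC3 with miR-205, 2 for SKOV3 with miR-429, 15, 7 and 15 for the lines in the order above, and 6 in the F-test for miR-203a. Without probe sets that may cross-hybridise, 9 were called for PC3 with miR-203a, 10 and 6 for HEY and PC3 with miR-205, 13 and 7 for HEY and PC3 with miR-429, 13, 7 and 13 for the lines, and 4, 11 and 13 in the F-tests.

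For the listed partner and target genes, a minimum change of 1 left 1 of 13, 2 of 8 and 26 of 53 for HEY, SKOV3 and PC3 with miR-203a, 32 of 61, 7 of 26 and 14 of 47 with miR-205, 22 of 50, 10 of 21 and 8 of 41 with miR-429, and 2 of 17 for PC3 miR-203a against miR-205. Without probe sets that may cross-hybridise these were 5, 4 and 24, then 32, 11 and 20, then 22, 9 and 19, and 6. A fit per line gave 2 for HEY and 15 for SKOV3 with miR-203a and 32 for SKOV3 with miR-429, and leaving out the arrays labelled untransfected gave 14 for SKOV3 with miR-203a.

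Taking the arrays labelled untransfected as control called 27 and 23 member probe sets for HEY and SKOV3 with miR-203a, 24 and 23 for SKOV3 and PC3 with miR-205, and 24 and 23 for SKOV3 and PC3 with miR-429. It called 68 and 61 partner and target genes for HEY and SKOV3 with miR-203a, 67 for SKOV3 with miR-205, and 63 and 68 for SKOV3 and PC3 with miR-429. It turned the sign of 26 of 54 results, counting only those called with either control. With miR-203a these were SNAI1 -0.79, SNAI2 1.80 and TCF4 6.42 in HEY, SNAI2 0.73, TWIST2 4.51 and TCF3 2.38 in SKOV3, and SNAI2 0.69, TWIST1 2.06, TCF4 0.29 and TCF3 1.47 in PC3. With miR-205 they were SNAI1 -0.46, SNAI2 1.99, TWIST1 2.54, TCF4 6.02 and TCF3 1.87 in HEY, TCF3 2.50 in SKOV3, and SNAI2 1.44, TWIST1 2.20 and TCF3 1.40 in PC3. With miR-429 they were SNAI1 -0.43, TWIST1 3.96, TCF4 5.54 and TCF3 2.04 in HEY, TCF3 2.34 in SKOV3, and SNAI2 0.69 and TCF4 1.24 in PC3.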
